A study of Homo sapiens with 6 samples.

Results

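Wide stretches of the genome that carried R-loop peaks in every sample were examined in SH-SY5Y, a human neuroblastoma cell line. The 1273 domains are merged peak regions of at least 10000 bp on chromosomes 1 to 22 and X that a peak of each of the 6 samples overlaps. They were selected on measured values, namely peak positions, width and presence, so those values describe the domains and test nothing. They came from 75758 merged regions, of which 15555 on these chromosomes had a peak in all 6 samples. The domains are 8.18% of those constant regions and 28.0% of their length, 19.66 Mb in all.

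The assay was DRIP-seq, in which the antibody S9.6 pulls down DNA that is paired with RNA. Cells carried 1 of 2 short hairpin RNAs, shT2 (3 samples) or shNC3 (3 samples), each expressed from a U6 promoter in the lentiviral vector pLVX-U6-shRNA1, and both groups were selected with puromycin as stable populations. The series concerns knockdown of TDP-43, an RNA-binding protein linked to amyotrophic lateral sclerosis. The labels do not state which hairpin targets it. From the names, shT2 is read as the knockdown and shNC3 as its control, and every difference is shT2 minus shNC3. Whether the 3 samples per hairpin are separate infections is not labelled, so each p-value covers the spread of these samples alone, and that spread may be technical. Before the pulldown, nucleic acids were cut with the restriction enzymes BsrGI, EcoRI, HindIII, SspI and XbaI, and the recovered DNA was then sonicated. Peaks near marker genes were read beside the cell line label. A peak is not expression, so its presence cannot verify the line. Of 10 noradrenergic neuroblastoma markers 7 had a peak in all 6 samples, CHGB and SCG2 in 1 shT2 sample each and TH in none. Of 4 blood and 2 liver markers none had a peak in any sample. Of 4 epithelial markers none had a peak in all 6 samples, and KRT8, a keratin gene, had one in each of the 3 shNC3 lists and in none of shT2. EPCAM had one in 2 shT2 samples, KRT5 in 1 shNC3 sample and CDH1 in none. Depth differed between hairpins. The depth recovered from the peak statistics was 3.08 to 3.46 fragments per base in shT2 and 1.65 to 1.79 in shNC3, a ratio of means of 1.9, and total covered length was 72.66 to 78.16 Mb against 62.86 to 70.49 Mb. The part that depth plays in the differences between hairpins was not tested.

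An R-loop forms when RNA pairs with the template strand of DNA and leaves the other strand single. R-loops are common at GC-rich promoters, where G-rich RNA follows the polymerase, and near the ends of genes, where they accompany transcription termination. RNase H enzymes and helicases remove them, and RNA-binding proteins that coat nascent RNA limit their formation.

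The borders of the domains were of 2 kinds. Of 2546 domain ends, 1011 (39.7%) were set by peaks of all 6 samples that ended on the identical base, and 1128 (44.3%) were reached by a single sample. Only 63, 104, 103 and 137 ends were shared by 2, 3, 4 and 5 samples. Both ends were shared by all 6 samples in 219 domains (17.2%). Sequence was at hand for the windows of 300 bases around gene starts (250 before and 50 after), and 40 domain ends fell inside such a window. Of these, 22 lay exactly where one of the 5 enzymes cuts, although cut positions make up 0.1% of all window positions. All 16 ends shared by 6 samples lay at a cut position, as did the 6 ends shared by 3, 4 or 5 samples, and none of the 18 ends reached by a single sample did. Because the members were chosen on peaks, these counts are a description of where the called regions stop.

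The following windows show the rule at domain ends shared by all 6 samples, with the 6-base recognition site in capitals and 12 bases on each side. Each is named for the gene whose promoter window holds it. Sequences are from RefSeq, build GRCh38.p14, and all run from 5′ to 3′.
PAFAH1B3, BsrGI, right end at base 42302770, chr19:42302754-42302783, plus strand: gaaaccatttgcTGTACAgagtgaaatgtg
SLC44A4, BsrGI, left end at base 31877643, chr6:31877630-31877659, plus strand: gggaagcggcccTGTACAtcctcactctgg
JPT1, EcoRI, right end at base 75154597, chr17:75154581-75154610, plus strand: gccgattcaaatGAATTCtttcattcctat
GAL3ST1, EcoRI, left end at base 30572853, chr22:30572840-30572869, plus strand: cagccgggcccaGAATTCcatttgtgcatc
DOK4, HindIII, right end at base 57487292, chr16:57487276-57487305, plus strand: tccctggaccagAAGCTTcccatcaccttg
NHLRC4, HindIII, left end at base 566917, chr16:566904-566933, plus strand: tttctttcatagAAGCTTcaggggccaagg
ZNF3, SspI, right end at base 100082121, chr7:100082107-100082136, plus strand: gaaggattcatcAATATTaaaaaatgaacc
EEF2, XbaI, right end at base 3985618, chr19:3985602-3985631, plus strand: ccggcgcggcgcTCTAGAatagaagctggg
SYNGR2, XbaI, left end at base 78168457, chr17:78168444-78168473, plus strand: cccctccccgccTCTAGAagcgcagtcccg
In BsrGI, EcoRI, HindIII and XbaI sites, which are cut after base 1 and leave an overhang of 4 bases, a domain began at base 2 of the site or stopped at base 5. In the SspI site, which is cut bluntly, the domain stopped at base 3. The ends in promoter windows split into 4 BsrGI, 5 EcoRI, 6 HindIII, 1 SspI and 6 XbaI sites. EEF2, the elongation factor gene on chromosome 19, gives an example: its domain (3974769 to 3985618) stopped in the XbaI site of the EEF2 promoter in all 6 samples, while its other end was reached by a single sample.

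For contrast, 3 ends that a single sample reached are shown with the end base in capitals. None of the 5 sites lies at that base.
MEX3D, left end at base 1568395, chr19:1568383-1568407, plus strand: ccgcgacgtcacGccgcggcccaac
CDK10, left end at base 89686497, chr16:89686485-89686509, plus strand: actacggcgcagCcgggtcggctgc
MRI1, right end at base 13764491, chr19:13764479-13764503, plus strand: tgtgcgtgtctcTttttccggggga
The MEX3D window holds the left end of the second widest domain, the one over MBD3, UQCR11 and TCF3. The narrower constant regions had the same pair of border types. All 180 of their ends that were shared by 6 samples and lay in a promoter window were at a cut position, and 280 of 600 ends in windows were at one in all. Inside the domains sites could be crossed by peaks, and because a domain is a run of merged peaks, a crossing by some sample is built in. Of 110 recognition sites at least 100 bp from a domain end, 54 (49.1%) lay wholly under a peak in all 6 samples. Another 55 did so in 1 to 5 samples and 1 in no sample. Of all domain bases, 76.8% were covered in all 6 samples. Of 485 peak ends in windows inside domains, 43 (8.9%) lay at a cut position, against 0.1% of all window positions. Ends elsewhere in the genome were not compared with cut sites here.

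**Figure D1:**
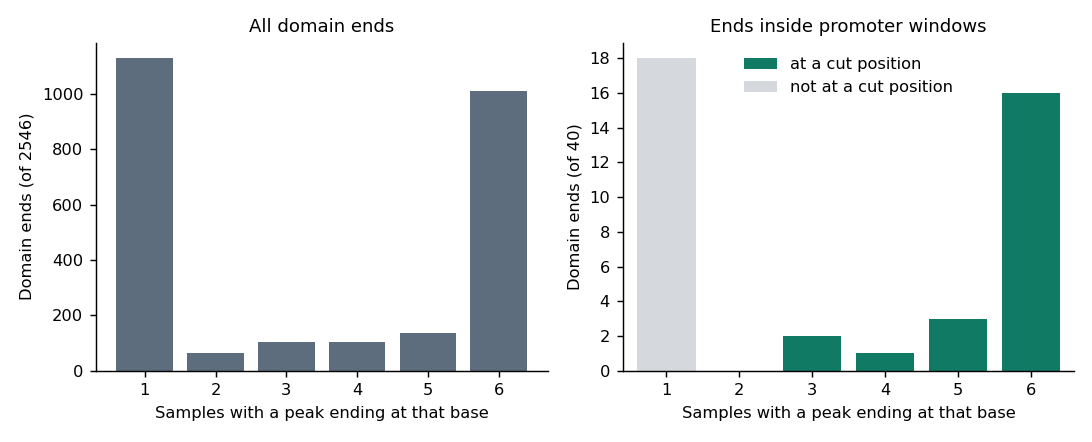
Left, the number of domain ends (vertical axis, of 2546) by the number of samples whose outermost peak ends at that base (horizontal axis). Right, the same for the 40 ends in promoter windows, split by whether the end lies at a cut position of 1 of the 5 enzymes: the 18 single-sample ends do not, and the 22 shared by 3 or more samples do.

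Domain width ran from 10002 to 61546 bp with a median of 13542 bp and an upper quartile of 17350 bp. Widths of at least 20000 bp were found in 199 domains, at least 30000 bp in 42, at least 40000 bp in 18 and at least 50000 bp in 6. Just inside the limit lay domains at the lysyl oxidase gene LOXL4 (10002 bp), at TNFAIP8L1 and MYDGF (10002 bp), at GATC and the splicing factor gene SRSF9 (10006 bp), and at FXYD2 (10008 bp). Just outside lay regions of 9998, 9995, 9977 and 9976 bp on chromosomes 22, 1, 17 and 12. Neighbouring domains could be nearly continuous: 65 gaps between domains were under 1000 bp, with a median of 415 bp, and 124 domains formed 59 chains across such gaps. The longest chain by span ran over 112132 bp of chromosome 11 (758914 to 871045) in 3 domains. It holds the ribosomal protein gene RPLP2, the tetraspanin gene CD151 and the RNA polymerase II subunit gene POLR2L.

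The 6 widest domains overlapped 3 to 7 coding genes each and were nearly filled with peaks in every sample. The widest lay on chromosome 17 (81663112 to 81724657) and overlaps 7 coding genes, among them HGS, an endosomal sorting gene, the mitochondrial ribosomal gene MRPL12 and the dicarboxylate carrier gene SLC25A10. Peaks lay over 58425, 58194 and 58275 bp of it in the shT2 samples (replicates 1 to 3 in order, here and below) against 60026, 59408 and 60018 bp in the shNC3 samples. Every sample covered at least 94.6% of it, with the shT2 values all below the shNC3 values. The next, on chromosome 19 (1568395 to 1627862, 59468 bp), spans the E-protein gene TCF3, the NuRD subunit gene MBD3 and UQCR11, a complex III subunit gene. It was covered over 56739, 58855 and 56665 bp in shT2 and 57519, 56678 and 56560 bp in shNC3, so the groups overlapped. The other four of the 6 were the EDF1 and PHPT1 domain of chromosome 9 (53598 bp), the CD151 and POLR2L domain of chromosome 11 (53479 bp), the domain of chromosome 19 at the H3K79 methyltransferase gene DOT1L and the splicing factor gene SF3A2 (50685 bp), and that of chromosome 16 at the ubiquitin ligase gene STUB1 and the mitochondrial GTPase gene RHOT2 (50272 bp). Their coverage lay between 93.0% and 100.0% of the width in every sample. Both ends of the chromosome 9 domain were identical in all 6 samples.

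Most of the length of a typical domain lay under a few called peaks in each sample. Nucleic acids were cut before the pulldown, so length under peaks need not be the length paired with RNA, which was not measured. The share of domain length under a peak was 89.70%, 91.17% and 89.06% in shT2 replicates 1 to 3 and 92.37%, 89.43% and 91.41% in shNC3 replicates 1 to 3. The groups overlapped, at 89.98 ± 1.08% and 91.07 ± 1.5% (SD, n = 3 each), a difference of -1.09 percentage points (two-sided exact permutation test, p = 0.4). The mean number of separate peaks per domain was 2.53, 2.34 and 2.68 in shT2 and 2.27, 2.66 and 2.44 in shNC3 (exact permutation p = 0.7), and the median was 2 in every sample. A single unbroken peak spanned all the covered part of 30.40%, 33.54% and 27.02% of domains in shT2 and 37.47%, 26.08% and 31.26% in shNC3 (exact permutation p = 0.9). These shares differed as much within a hairpin as between the hairpins. In the narrower constant regions 79.22%, 82.59% and 77.98% of the length was covered in shT2 and 77.93%, 71.14% and 75.51% in shNC3, with 3 samples of each hairpin and an exact permutation p of 0.1, the smallest that 3 against 3 can give.

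The domains made up a smaller part of all covered length in shT2. Their share of each sample's covered length was 23.98%, 22.93% and 24.09% in shT2 and 25.76%, 27.97% and 26.42% in shNC3. Every shT2 value lay below every shNC3 value, with a difference of -3.05 percentage points (exact permutation p = 0.1, the smallest possible). The domains' own covered length was 17.63, 17.92 and 17.51 Mb in shT2 and 18.16, 17.58 and 17.97 Mb in shNC3, and these overlapped (exact permutation p = 0.4). The lower share in shT2 thus goes with its larger total covered length, a mean of 74.8 Mb against 67.1 Mb in shNC3. The regions were chosen on peaks of these same samples, so the p-values of this and the preceding paragraph are a description.

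**Figure D2:**
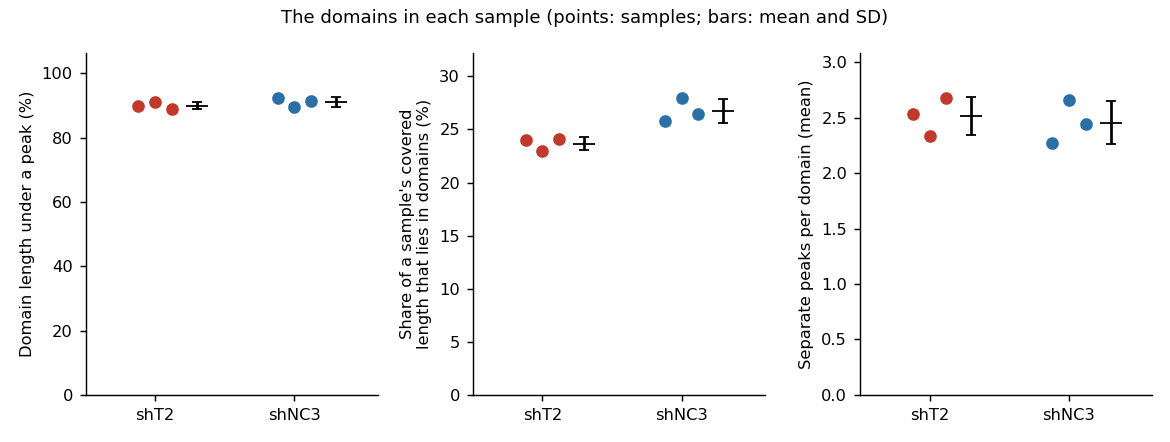
Each point is 1 sample and each bar the mean with its SD (3 samples per hairpin): the percent of the domain length under a peak, the percent of a sample's covered length that lies in the domains, and the mean number of separate peaks per domain. Only the middle panel separates the hairpins, at 22.93% to 24.09% in shT2 and 25.76% to 27.97% in shNC3.

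Most domain bases were shared. All 6 samples covered 76.8% of them, 5 samples 7.5%, 4 samples 5.2%, 3 samples 5.3%, 2 samples 2.8% and 1 sample 2.4%. In 426 domains more than 90% of the length was covered in every sample, and 33 lay wholly under 1 peak in all 6. Under 50% of the length was covered in some sample in 64 domains, with a lowest share of 1.49%. Gaps between peaks made up 5.53% to 7.35% of domain length in shT2 and 5.12% to 7.18% in shNC3. Stretches beyond a sample's outermost peaks made up 3.30% to 3.58% and 2.51% to 3.39%.

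Domains also held strong peaks. Fold enrichment, the peak caller's ratio over local background, was read for peak strength as a rank within each sample's own list. A fixed cut of 5-fold was used only in the alternative settings. The strongest peak of a domain had a median percentile of 96.9 to 97.3 in the 6 lists, against 73.7 to 79.2 for the strongest peak of a narrower constant region. A wider region has more peaks to draw the strongest from. In 83.7% to 86.1% of domains at least 1 peak was in the top 10% of its list. The position of the strongest summit was less fixed: all 6 samples placed it within 500 bp in 378 domains (29.7%), and the median distance between the outermost of the 6 summits was 4229 bp.

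Nearly all domains lay on genes, and the widest class of region was the one richest in gene ends. A protein-coding gene overlapped 98.3% of domains, and 2141 coding genes, 10.7% of the 19974 in the RefSeq table, overlapped a domain. At least 2 coding genes overlapped 710 domains (55.8%), against 21.9% of constant regions of 5000 bp up to 10000 bp and 8.9% of those under 5000 bp. A whole coding gene lay inside a domain 651 times. Strand was at hand for 15812 coding genes, none of them on chromosome 8, so starts and ends were counted for those genes only and in 1237 domains. The domains held 4.57 gene starts and 6.96 gene ends per 100 kb. Regions of 5000 bp up to 10000 bp held 4.05 and 5.07, and regions under 5000 bp held 8.72 and 3.03. The shortest constant regions thus held more starts than ends and the domains more ends than starts.

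**Figure D3:**
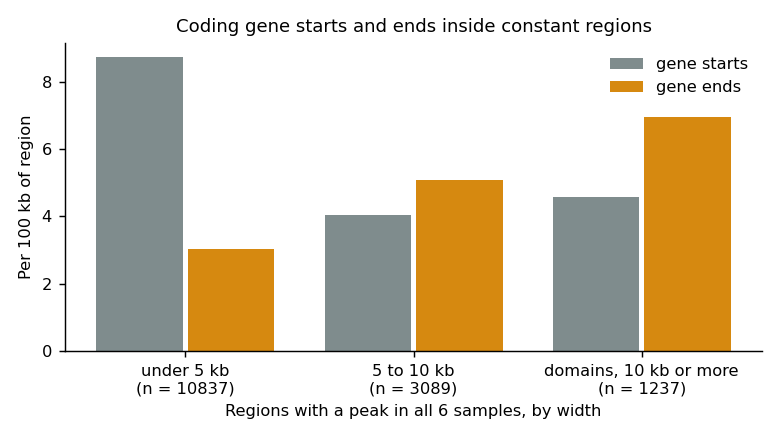
Bars give coding gene starts (grey) and coding gene ends (orange) per 100 kb of region, for constant regions under 5 kb, of 5 to 10 kb and for the domains, outside chromosome 8. Ends per 100 kb rise from 3.03 to 5.07 to 6.96 across the width classes, while starts are highest, at 8.72, in the shortest.

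Neighbouring genes that end towards each other were frequent in domains. Of 715 pairs of neighbouring genes whose facing ends both lay in a domain, 315 (44.1%) were tail to tail, 267 ran the same way and 133 were head to head. In constant regions of 5000 bp up to 10000 bp the tail-to-tail share was 41.4%, and among all neighbouring coding genes with facing ends at most 10 kb apart it was 31.7%. Of the domains, 305 held at least 1 tail-to-tail pair.

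Gene-dense chromosomes carried most domains. Chromosome 19 held 270 (21.2% of domains, with 7.3% of coding genes), chromosome 17 held 128, chromosome 1 held 96, chromosome 11 held 94 and chromosome 16 held 92. Chromosome 19 thus had 18.6 domains per 100 coding genes, chromosome 22 11.3 and chromosome 17 10.9, against 1.3 on the X chromosome, 0.6 on chromosome 13 and 0.4 on chromosome 18. Copy number of these chromosomes in SH-SY5Y was not measured here.

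Coding genes were most numerous in a domain of chromosome 17 (7557802 to 7591416, 33615 bp) with 9. They include the SUMO protease gene SENP3, the translation helicase gene EIF4A1, CD68 and FXR2, a paralog of the fragile X gene. It was covered over 25911, 28104 and 27653 bp in shT2 and 32142, 31533 and 31216 bp in shNC3, and the groups did not overlap. The log2 difference of scaled length was -0.37 (SE 0.05, limma adjusted p = 0.00299), and that of unscaled length -0.21. Domains with 8 coding genes lay on chromosome 8 around RECQL4, a DNA helicase gene, and GPT (38019 bp), on chromosome 9 around the beta-tubulin gene TUBB4B and NDOR1 (36939 bp), and on chromosome 11 around the growth factor gene VEGFB and FERMT3, a kindlin gene of blood cells (33260 bp).

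Only 12 domains overlapped no coding or lncRNA gene. Of these, 7 held a pseudogene and 8 lay within 5000 bp of a coding gene. The widest, on chromosome 22 (23380990 to 23401453, 20464 bp), overlaps the pseudogenes CES5AP1, ZDHHC8BP and CCDC188BP. It was covered over 20039, 19816 and 18510 bp in shT2 and over 10672, 7353 and 6368 bp in shNC3 (log2 difference 1.09, SE 0.16; 1.24 unscaled), and it was wide in shT2 alone. Reads from near-identical copies may be placed at either copy, so pseudogene domains are less certain. The other two of the 3 widest, at SMPD4BP on chromosome 2 (16269 bp) and on chromosome 7 from 128518837 to 128532799 (13963 bp), differed by -0.07 (limma adjusted p = 0.20) and -0.03 (0.687).

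Promoters inside domains were GC-rich, as were those in other constant regions. The 870 coding promoters in domains had a median GC content of 67.3%, against 67.0% in narrower constant regions, 60.0% where no sample had a peak and 62.7% over all 15812. Their median ratio of observed to expected CpG was 0.83, below the 0.87 of the narrower constant regions and above the 0.66 of promoters without a peak. GC skew, the excess of G over C on the sense strand as a share of both, had a median of 0.103 in the first 50 bases of the gene, against 0.086, 0.062 and 0.071 in the narrower constant, peak-free and all promoters. The motif GGGG stood in those 50 bases on the sense strand of 31.5% of domain promoters and 24.5% of all, and its complement CCCC in 20.8% and 18.6%. Over the whole 300-base window GGGG was found on the sense strand of 91.0% of domain promoters and 80.6% of all. A cut site of any of the 5 enzymes stood in 8.0% of domain promoters, 8.7% of narrower constant ones, 21.6% of peak-free ones and 17.8% of all. These shares describe letters in a window and share base composition as a common factor.

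The 250 bases before the start of 3 genes of the lists described below show what such promoters look like. They are printed on the sense strand, with runs of at least 4 G in capitals, from RefSeq, build GRCh38.p14.
GATA3 promoter, chr10:8045083-8045332, plus strand: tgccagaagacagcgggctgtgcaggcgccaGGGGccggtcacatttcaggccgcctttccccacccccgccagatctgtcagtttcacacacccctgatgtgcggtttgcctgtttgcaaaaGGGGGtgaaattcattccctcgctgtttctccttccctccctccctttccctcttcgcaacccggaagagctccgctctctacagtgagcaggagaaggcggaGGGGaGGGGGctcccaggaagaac
JUND promoter, chr19:18281623-18281872, minus strand: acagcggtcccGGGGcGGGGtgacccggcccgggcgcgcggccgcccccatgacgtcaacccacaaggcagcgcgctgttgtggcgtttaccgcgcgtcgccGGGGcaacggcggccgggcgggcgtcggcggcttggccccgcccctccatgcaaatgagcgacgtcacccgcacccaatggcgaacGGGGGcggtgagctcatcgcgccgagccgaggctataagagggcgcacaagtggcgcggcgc
GAPDH promoter, chr12:6535014-6535263, plus strand: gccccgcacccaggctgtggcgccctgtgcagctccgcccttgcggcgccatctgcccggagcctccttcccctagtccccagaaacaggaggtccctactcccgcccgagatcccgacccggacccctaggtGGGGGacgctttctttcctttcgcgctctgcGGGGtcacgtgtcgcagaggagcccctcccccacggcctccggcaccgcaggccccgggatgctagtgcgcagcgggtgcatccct
GATA3, a noradrenergic transcription factor gene, has 4 such runs at 60.8% GC. JUND, an AP-1 subunit gene, has 4 at 74.8% GC, and the glycolysis gene GAPDH has 2 at 71.2% GC. Each of these starts lies inside a domain.

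The domains also took in many genes that are well known in this cell type or used as DRIP test sites. Beside the 10.7% of all coding genes that overlapped a domain, 6 of 9 classic DRIP test loci did (RPL13A, TFPT, CALM3, MYADM, BTBD19 and APOE), as did 7 of 15 noradrenergic core factors (PHOX2A, HAND2, GATA2, GATA3, TBX2, MEIS2 and TLX2). The same held for 6 of 12 MYC network genes and 4 of 9 immediate-early or stress response genes (JUNB, JUND, IER2 and ATF4). It also held for 24 of 87 cytosolic ribosomal protein genes and 5 of 20 abundant housekeeping genes (ACTB, ACTG1, GAPDH, EEF1A1 and EEF2). Of 11 long non-coding RNA genes 2 did, the nuclear RNA genes MALAT1 and NEAT1. Of 32 hnRNP and SR genes 3 did, and of 39 HOX genes none. The lists were made with earlier results of these data known, so their shares are a description.

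The comparison of hairpins asked where the domains differ in length under peaks between shT2 and shNC3. At most domains the change was small. On unscaled lengths the median log2 difference of the 1273 domains was -0.00, and 738 (58.0%) lay within 0.1 of 0, against 38.9% of constant regions of 5000 bp up to 10000 bp, 27.7% of those under 5000 bp and 17.0% of all 34843 regions fitted. A domain already filled with peaks in every sample cannot lengthen, since its outer limits were set by the merged peaks of all samples. At a limma adjusted p under 0.05, 192 domains were longer in shT2 and 260 shorter on unscaled lengths, or 15.1% and 20.4%. Over all regions fitted 24.3% were longer and 12.7% shorter on that scale.

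With lengths scaled to the mean total covered length, the planned setting, 67 domains were longer, 572 shorter and 634 not called, and the median was -0.16. Over all regions 22.6% were longer and 17.0% shorter. The total covered length of shT2 exceeded that of shNC3 by 0.16 on the log2 scale, so scaling alone moves a filled domain down by that much. All 67 longer and 260 shorter domains are called in the same direction on both scales. With shT2 replicate 1, 2 or 3 left out, the scaled count of shorter domains was 339, 319 and 369. The count of longer ones was 42 without shT2 replicate 1 and 41 without shT2 replicate 3. Every unscaled shT2 value lay above every shNC3 value in 277 domains and below in 341, where the shares over all regions were 31.4% above and 17.2% below.

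**Figure D4:**
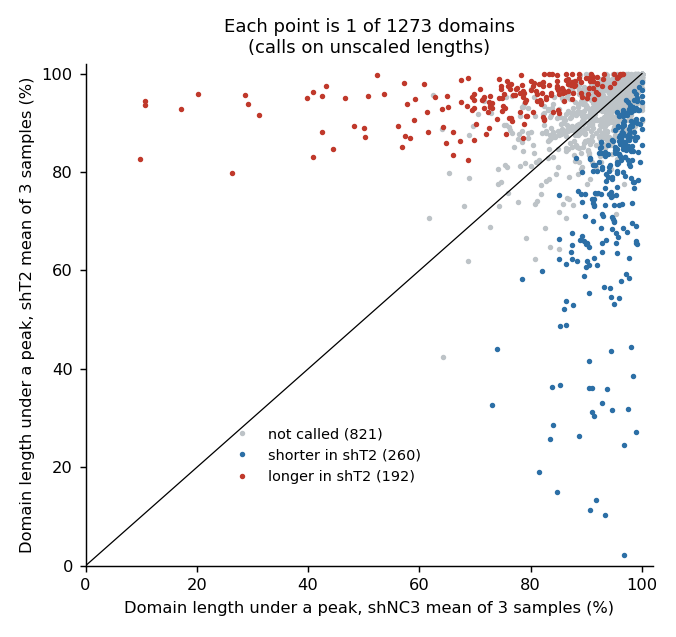
Each point is 1 domain, placed by the mean percent of its length under a peak in shNC3 (horizontal axis) and in shT2 (vertical axis), 3 samples each. The line marks equal values and colours mark the limma calls on unscaled lengths, with 192 longer in shT2, 260 shorter and 821 not called; most points crowd near 100% on both axes.

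Called domains differed in what they held. Of domains longer in shT2 on unscaled lengths 28.5% held a coding gene start, of the shorter ones 54.2% and of the uncalled 47.2% (outside chromosome 8). By content, 9.3% of the 567 domains with a start were longer and 24.2% shorter. Of the 357 with a gene end and no start 18.5% were longer and 13.2% shorter. Of the 313 with neither 67 were longer and 69 shorter. Genes without a strand at hand are left out of these counts, so some of the 313 hold a start or end of such a gene. With either boundary of any coding gene counted, on all chromosomes, 75.5% of longer, 76.2% of shorter and 83.3% of uncalled domains held one. By width, 9.5% of the 42 domains of at least 30000 bp were longer in shT2 and 40.5% shorter, against 15.5% and 18.8% of the 792 domains under 15000 bp. The ends of called domains were also less often common to all samples, at 32.8% of ends in longer and 28.7% in shorter domains and 44.8% in the uncalled. This is partly built in, because a sample whose peaks stop short of a domain end also covers less of the domain. None of these shares was tested against another.

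The width rule itself can select differences. Merged on its own, each hairpin's 3 samples reached 10000 bp, here called wide, in 741 domains. Only shT2 was wide in 185, only shNC3 in 284 and neither in 63. A domain that is wide in 1 hairpin only had to differ in merged width. On unscaled lengths 107 of the 185 domains wide in shT2 alone were longer in shT2 and none shorter, and 155 of the 284 wide in shNC3 alone were shorter and 2 longer. Of the 741 that were wide in both, 75 were longer and 98 shorter on unscaled lengths (median 0.00), and 7 and 311 on scaled lengths.

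Past 1 on the log2 scale, with both scalings called, 11 domains were longer in shT2 (0.864%) and 26 shorter (2.04%). Over all regions fitted the shares were 15.0% and 7.53%, so such changes were less frequent among the domains in each direction. This is a description and was not tested. The regions fitted need a peak in only 3 samples and can lack one in a whole hairpin, which a domain cannot. On scaled lengths alone, 155 longer and 137 shorter of the 3140 constant regions of 5000 bp up to 10000 bp passed 1. All 11 were wide in shT2 alone, 25 of the 26 were wide in shNC3 alone and 1 in neither. None of the 741 domains wide in both hairpins is among them. The 37 are therefore described below without a p-value. They were mostly narrow for the set, with a median width of 10936 bp, and 22 of the 37 lay wholly inside a coding gene. Of all 1273 domains 224 (17.6%) lay so, with no boundary of a coding gene inside. Of the narrower constant regions of 5000 bp up to 10000 bp it was 46.2%.

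The largest gain was at TRPV1, the heat- and capsaicin-gated cation channel gene (chromosome 17, 3570453 to 3583436). Its covered length was 12196, 12275 and 11981 bp in shT2 and 1480, 1791 and 871 bp in shNC3. The domain is filled with shT2 and touched by 2 to 4 short peaks with shNC3, and it lies inside the gene, 5.0 kb before its end. The log2 difference was 2.65 (SE 0.21). Inside GSE1, a coiled-coil protein gene (chromosome 16, 85355612 to 85365647), covered length was 10036, 9023 and 9376 bp against 852, 1171 and 1197 bp (2.54, SE 0.13). TSNARE1, a SNARE domain gene on chromosome 8 (142337529 to 142347682), had 7281, 9246 and 8626 bp against 1190, 800 and 999 bp (2.45, SE 0.11).

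SYCE2, a meiotic synaptonemal complex gene (chromosome 19, 12901892 to 12914619), had 11825, 12692 and 12064 bp in shT2 and 3362, 1483 and 2883 bp in shNC3 (1.96, SE 0.22). Peaks covered at least 92.9% of its width in every shT2 sample and at most 26.4% in every shNC3 sample. At GSE1 the difference ran from 1.81, with a pseudocount of 2000 bp, to 4.28, with only peaks of at least 5-fold enrichment.

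LSP1, which encodes an actin-binding protein of leukocytes, had the largest loss (chromosome 11, 1862433 to 1885002, 22570 bp). Its domain was covered over 639, 336 and 561 bp in shT2 and 21659, 21576 and 22276 bp in shNC3. Its width was thus set by the shNC3 peaks, which nearly fill it, while the shT2 peaks covered under 1 kb (log2 difference -4.59, SE 0.13). The domain at the start of CSRP1, a LIM domain protein gene of the actin cytoskeleton (chromosome 1, 201495828 to 201508204), had 1399, 1616 and 828 bp against 11190, 11641 and 11793 bp (-2.92, SE 0.17). ACTN4, the actin cross-linker gene alpha-actinin 4 (chromosome 19, 38656194 to 38667437), had 2818, 1354 and 2239 bp against 9295, 8977 and 9225 bp (-2.05, SE 0.23).

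PFKFB3, a glycolysis regulator gene (chromosome 10, 6224298 to 6234843), had 369, 2154 and 1711 bp in shT2 and 9785, 9198 and 10052 bp in shNC3 (-2.69, SE 0.40). The domain where the genes TTC21A and CSRNP1 end tail to tail (chromosome 3, 39134850 to 39145538) had 1594, 1646 and 404 bp against 8806, 10689 and 9587 bp (-2.80, SE 0.34). MXRA7, a matrix remodelling associated gene (chromosome 17, 76694577 to 76705815), had 1731, 1949 and 1358 bp against 9997, 8363 and 10230 bp (-2.34, SE 0.10). In these 6 losses and the gains above, groups that do not overlap were a condition of the choice.

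**Figure D5:**
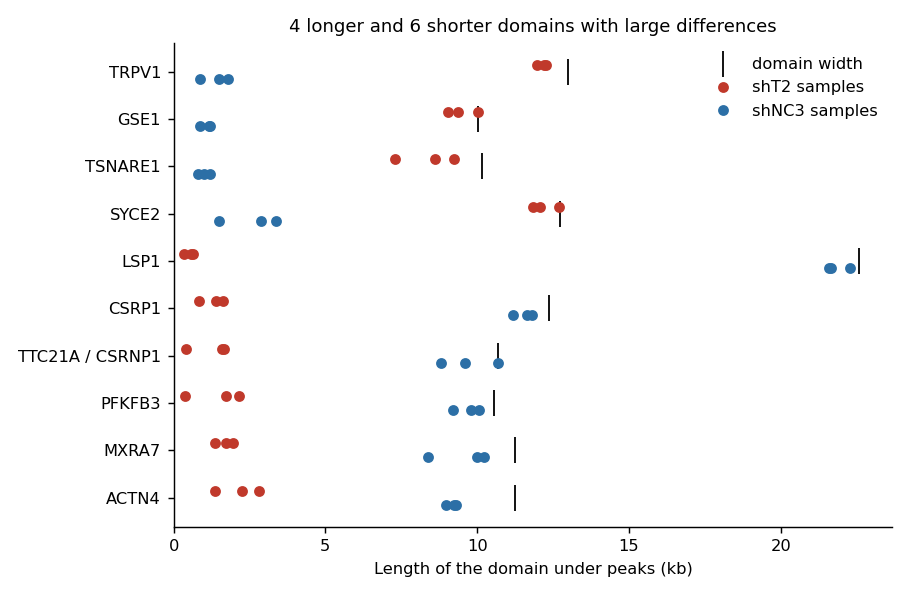
Length under peaks in kb (horizontal axis) of 4 of the domains with the largest gains and the 6 with the largest losses (vertical axis, by gene), 1 point per sample, with a tick at the domain's width. The shT2 points of TRPV1 stand for 11981 to 12275 bp and its shNC3 points for 871 to 1791 bp; the order is the other way round from LSP1 down.

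Further domains past 1 on the log2 scale are named here after their values were seen. Shorter ones lay at the alpha-actinin gene ACTN1 (-1.55), the zyxin gene ZYX (-1.44), the tensin gene TNS1 (-1.60), the focal adhesion adaptor gene BCAR1 (-1.72), AHNAK (-1.19), AHNAK2 (-1.67) and the collagen gene COL18A1 (-1.41). Others lay at ADAP1 (-1.99), the casein kinase gene CSNK1G2 (-1.74), the checkpoint ubiquitin ligase gene CHFR (-1.29), the Notch target gene HES4 (-1.27) and the tumour suppressor gene MEN1 (-1.18). The rest lay at C13orf46 (-1.9), PGPEP1 (-1.73), SH3TC1 (-1.61), PHLDB1 (-1.44), CXXC5 (-1.37), MICALL2 (-1.26) and SLCO4A1 (-1.21), with a domain of chromosome 19 without a coding gene (-1.59). The ZYX domain also overlaps FAM131B and EPHA1. At TNS1 the mean covered lengths were 5.33 kb (shT2) and 15.48 kb (shNC3), and at ZYX 5.63 and 14.39 kb. The longer ones included domains at the kinesin gene KIF13B (1.43), CCDC85C (1.30), LINC01389 (1.28) and LINC03048 (1.05). The KIF13B domain crosses a boundary of that gene and holds only 0.9% of its length.

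Regions of at least 10000 bp that failed only the rule on presence numbered 9. In 8 of them every shNC3 value was above every shT2 value, and 6 were without a peak in all shT2 samples. At COL1A1, the type I collagen gene (chromosome 17, 50185368 to 50196815), covered length was 334, 0 and 332 bp in shT2 and 11448, 11444 and 11448 bp in shNC3. NOTCH1, a receptor gene (chromosome 9, 136515544 to 136525551), had no peak in shT2 and 8118, 4665 and 8190 bp in shNC3. The region of the epithelial keratin genes KRT8 and KRT18 (chromosome 12, 52946580 to 52956705) was covered over 10126 bp in every shNC3 sample and had no peak in shT2. Whether epithelial marker signal in shNC3 plays a part in the losses above was not tested. The opposite case, on chromosome 2 (176137892 to 176148898), overlaps no coding gene and had 9571, 10009 and 10030 bp against 2031, 0 and 1237 bp. These regions are not domains, and a domain, having a peak in every sample, cannot show such a full absence.

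Changes in the listed genes were mostly small and are given on the scaled and then the unscaled lengths. They are read against all domains, of which 5.26% were longer and 44.9% shorter when scaled (median -0.16) and 15.1% and 20.4% unscaled (-0.00). Of the 7 noradrenergic domains 1 was longer, 3 shorter and 3 not called when scaled (median -0.12), and 2 were longer and none shorter unscaled (0.03). At GATA3 (chromosome 10, 8044722 to 8074331) peaks covered all 29610 bp in every shT2 sample and 24880, 26036 and 25796 bp in shNC3, a difference of 0.05 scaled (limma adjusted p = 0.53) and 0.21 unscaled (0.00124). The TBX2 domain of chromosome 17 (31094 bp) was at least 94.4% covered in every sample (-0.19, limma adjusted p = 0.0113, and -0.04 unscaled, 0.299).

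All 4 immediate-early or stress response domains were shorter when scaled (median -0.21) and 2 of them also unscaled (-0.06). On 4 domains this says little beside the 44.9% and 20.4% of all domains. The JUND domain was covered over 24691, 26680 and 24729 bp in shT2 and 28307, 27988 and 28140 bp in shNC3, without overlap (-0.30, SE 0.04, limma adjusted p = 0.00321, and -0.15 unscaled). The JUNB domain, which also holds HOOK2 and PRDX2, was covered whole in every shNC3 sample (16973 bp) and over 16351, 16318 and 16534 bp in shT2 (-0.20, limma adjusted p = 0.0292, and -0.05 unscaled). Of the 5 housekeeping domains 3 were shorter when scaled, and unscaled 1 was longer and 1 shorter. ACTG1, the cytoplasmic gamma-actin gene, was the largest of these changes, with 7574, 8869 and 8911 bp in shT2 and 13925, 14231 and 13342 bp in shNC3 (-0.83, SE 0.08, and -0.68 unscaled), and its domain was wide in shNC3 alone. ACTB, the beta-actin gene, was at least 95.5% covered in every sample (-0.17, limma adjusted p = 0.0343, and -0.02 unscaled, 0.441).

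Of the 6 domains at DRIP test loci 3 were shorter on both scales and none was longer (medians -0.24 and -0.09), where 44.9% of all domains were shorter when scaled and 20.4% unscaled. MYADM had 12017, 11718 and 11898 bp in shT2 and 12989, 12581 and 12911 bp in shNC3 (-0.26, limma adjusted p = 0.00937). RPL13A was covered over 17146 bp in every shT2 sample and 16841 to 17146 bp in shNC3 (-0.14, limma adjusted p = 0.0899). Of the 23 ribosomal protein domains 1 was longer, 6 shorter and 16 not called when scaled (median -0.14), and unscaled 5 were longer and 4 shorter (0.01). Of the 6 MYC network domains 1 was longer and 1 shorter when scaled, and 3 and 1 unscaled. The shorter one, at MLX, had 11995, 12193 and 12147 bp in shT2 and 14700, 15006 and 14830 bp in shNC3 (-0.43, SE 0.06, and -0.28 unscaled), and its domain was wide in shNC3 alone. The NEAT1 domain was shorter when scaled only (-0.16, limma adjusted p = 0.0107, and -0.01 unscaled, 0.91), and the MALAT1 domain was not called on either scale. Of the 3 hnRNP and SR domains the SRSF9 one was longer on both (0.23 and 0.37) and wide in shT2 alone, with 9547, 9636 and 9488 bp against 7698, 6455 and 7684 bp.

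Some domains were even by the scaled measure. Among those over 90% covered in every sample, the smallest differences were at the nucleoside transporter gene SLC29A2 (-0.02), the eye and forebrain homeobox gene SIX3 (-0.04), the Mediator gene MED15 (-0.04) and the domain of CATSPERD, PRR22 and DUS3L (-0.05). In unscaled bp these 4 were filled a little further in shT2. SLC29A2 was covered over all 13544 bp in every shT2 sample and 12294, 12214 and 12384 bp in shNC3, which is 0.13 unscaled.

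Outer borders were also compared between the hairpins. At 133 of the 2546 domain ends (5.22%) every shT2 sample reached further out than every shNC3 sample, at 28 of them by at least 1000 bp. At 181 ends (7.11%) every shNC3 sample reached further, at 46 by at least 1000 bp. Over the 31110 ends of all constant regions these shares were 6.37% and 5.29%. The width rule favours regions that 1 hairpin extends, so the shares are a description.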

How the data were processed

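DRIP-seq peak lists of 6 samples (3 shT2, 3 shNC3) were used. Per the submitters' processing notes, the authors used Bowtie2 2.4.4, SAMtools, MACS2 2.2.6 and build hg38. Each deposited list was called on 1 sample and gives, per peak, an integer score, the fold enrichment (a linear ratio), a −log10 p-value and a −log10 q-value. The control behind the calls was not given in the sources used here. The lists hold no reads, so depth was recovered from how the deposited ratio and −log10 p-value of single peaks fit together.

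Peaks of all samples were merged with a gap of 0 bp. Covered bp per region, scaled to the mean total covered length, were fitted as log2(bp + 500) with limma 3.58.1 in R 4.3.3 (trend, robust, no covariates) over 34843 regions with a peak in at least 3 samples, with Benjamini-Hochberg adjustment at 0.05. Log2 differences understate changes of short lengths. The script was tested on simulated data. Per-sample values were compared with two-sided exact permutation tests. Named domains were the 6 widest, the 6 largest differences each way among calls whose groups did not overlap, the 4 smallest, the 3 widest without a gene, the 3 with most coding genes, the 4 on each side of 10000 bp and up to 4 for each list. Of the largest gains 2 are not reported here. The members and lists were chosen with earlier results of these data known, and the mapping of cut sites was added after the files had been seen. Genes and windows are RefSeq's, assembly GRCh38.p14, whose coordinates were taken as those of hg38. The windows cover 27195 genes outside chromosome 8, and other windows were not used here. Alternatives changed the scaling, pseudocount, region and peak filters, limma options, replicate block and samples.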

Additional observations from a re-analysis of the deposited data

How the results depend on the processing

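The number of domains was 2577 when peaks up to 1000 bp apart were merged, 4413 at a width of at least 5000 bp and 199 at 20000 bp, and ran from 1190 to 1230 when 1 sample was left out. The count of domains longer in shT2 was 192 with no scaling and 35 with limma without trend and robust, and ran from 41 to 74 with 1 sample left out. The count of shorter domains was 260 with no scaling, 232 with 5-fold enriched peaks only and 207 without trend and robust, and ran from 319 to 658 with 1 sample left out. With peaks of a −log10 q-value of at least 5, the share of covered length in domains differed by -4.05 percentage points. With no scaling the sign turned at the TCF3 domain (0.01), the STUB1 domain (0.00) and the DOT1L domain (0.02, not called on either scale). It also turned at the domains of RPL13A (0.01), SMPD4BP (0.08), SIX3 (0.11), MED15 (0.11) and CATSPERD (0.1). The same held for the gene-free domain of chromosome 7 (0.12) and for SLC29A2, whose values are given above. Other domains whose sign turned are not all listed here. The 10 domains named for their gains and losses kept direction and call under all 16 alternatives run, but a large difference was a condition of their choice.

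Same-numbered samples did not deviate together. Over all regions the correlations of their deviations were -0.013, -0.029 and -0.016, and over the domains -0.089, -0.139 and -0.024. Whether same-numbered samples were prepared together is not labelled, and these correlations cannot show it. With a replicate block 52 domains were longer and 358 shorter. The shT2 libraries were 1.9 times as deep, and the part of depth in these counts was not tested.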
